A study of Mus musculus with 16 samples.

Results

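Zinc handling was followed through 9 genes chosen by name for the zinc-rich granules of Paneth cells: Mtf1, the metallothioneins Mt1 and Mt2, the zinc exporters Slc30a1, Slc30a2 and Slc30a7, and the zinc importers Slc39a4, Slc39a5 and Slc39a14. All 9 are among the 55414 genes of the deposited count table, and all 9 passed the low-count filter that left 11809 genes for testing. Paneth cells were sorted from the small intestine of C57BL/6J mice, whose age is not given in the sources used here. Each mouse received PBS (the vehicle) or DEX, followed 1 h later by PBS or tumour necrosis factor (TNF), and was sampled 3 h after the second injection. Each of the 4 groups has 4 biological replicate libraries and carries the names of both injections in order: PBS+PBS received vehicle alone, DEX+PBS received DEX alone, PBS+TNF received TNF alone, and DEX+TNF received both. DEX commonly stands for dexamethasone, a glucocorticoid drug, although the sources used here do not write it out.

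Zinc is held at a very low free concentration in the cytosol. Metallothioneins are small, cysteine-rich proteins that bind it, transporters of the SLC30 (ZnT) family move it out of the cytosol into vesicles or out of the cell, and transporters of the SLC39 (ZIP) family move it into the cytosol. Mtf1 encodes the metal regulatory transcription factor, a zinc sensor that binds metal response elements in DNA, and the metallothionein genes and Slc30a1 are its textbook targets. Metallothionein genes are also known to respond to glucocorticoids and to inflammation. Paneth cells store zinc in their secretory granules together with antimicrobial proteins, and Slc30a2 is the transporter that loads it there.

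The Mt1 and Mt2 genes lie beside each other on chromosome 8 (GRCm39, plus strand). Mt2 spans 94898819 to 94900207 and Mt1 spans 94905710 to 94906955, with 5502 bases between them. Their coding sequences, without the stop codon, are shown because both genes encode short, closely related proteins, and reads of the one must be told from reads of the other. Capitals mark the bases at which the 2 sequences differ, compared position by position (transcripts Mt1-201 and Mt2-201, GENCODE M39).
Mt1 coding: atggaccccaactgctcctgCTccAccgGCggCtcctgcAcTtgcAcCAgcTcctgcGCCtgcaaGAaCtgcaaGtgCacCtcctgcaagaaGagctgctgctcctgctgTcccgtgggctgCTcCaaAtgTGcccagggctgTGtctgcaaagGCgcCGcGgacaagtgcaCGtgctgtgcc
Mt2 coding: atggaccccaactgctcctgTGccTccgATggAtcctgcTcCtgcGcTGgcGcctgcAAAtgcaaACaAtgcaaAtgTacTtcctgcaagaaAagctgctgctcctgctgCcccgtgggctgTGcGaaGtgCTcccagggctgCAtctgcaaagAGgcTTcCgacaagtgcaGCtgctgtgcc
Each is 183 bases long, and they differ at 38 positions (79.2% identity). Of the 61 codons, 20 in each gene are TGC or TGT, which code for cysteine. The longest stretch without a difference is 20 bases, and no run of 31 bases is shared between the annotated transcripts of the 2 genes. Of the 31-base runs in Mt2 transcripts, 30 of 1134 also occur in transcripts of other genes, as do 19 of 10513 for Slc30a7 and 73 of 7311 for Slc39a14, and 0 for the 6 other genes. The RefSeq promoter windows of both genes, the 250 bases before the annotated start (RefSeq table, placed on GRCm39 at 1 position each), are shown with the cores of the metal response element in capitals. The core was searched as TGCACNC or TGCGCNC on both strands.
Mt1 promoter, chr8:94905467-94905716, plus strand: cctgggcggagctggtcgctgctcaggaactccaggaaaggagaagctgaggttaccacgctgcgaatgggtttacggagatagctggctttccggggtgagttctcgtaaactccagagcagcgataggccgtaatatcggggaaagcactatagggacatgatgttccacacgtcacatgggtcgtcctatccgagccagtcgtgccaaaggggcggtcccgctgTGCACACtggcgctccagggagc
Mt2 promoter, chr8:94898996-94899245, plus strand: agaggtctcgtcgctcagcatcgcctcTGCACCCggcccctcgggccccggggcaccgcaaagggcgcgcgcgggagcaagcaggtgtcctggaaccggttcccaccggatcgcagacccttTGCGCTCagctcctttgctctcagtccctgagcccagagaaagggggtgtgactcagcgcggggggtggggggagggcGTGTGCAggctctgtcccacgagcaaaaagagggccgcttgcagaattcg

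The Mt1 window holds 1 core, at bases -23 to -17 from the start, and the Mt2 window holds 3. At least 1 core is found in 21.4% of the 32851 promoters of the table, and 3 or more in 1.26%. Of the 9 genes, 7 have an entry in this table, and Slc39a5 has 2 starts. Slc39a4 and Slc39a14 have no entry, so no RefSeq window of theirs was searched. Slc30a2 has 2 cores, Slc30a1 has 1, the first start of Slc39a5 has 1, and the second start of Slc39a5, Mtf1 and Slc30a7 have 0. The Slc30a2 window (134070527 to 134070776) lies inside the annotated gene and runs across its start codon, which follows base 134070597. It is therefore not sequence before the gene. The windows of Mt2, of Mtf1 and of the second Slc39a5 start also lie inside the annotated gene, which for Mt2 begins at 94898819. Their cores, or lack of them, need not be those of sequence before the gene either. On both strands, a glucocorticoid response element (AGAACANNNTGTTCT, in 0.00913% of promoters) was found in none of these windows. The STAT element (TTCNNNGAA, in 7.02%) and the NF-kB element (GGGNNNTTCC, in 4.65%) had no match there either. The absence of a match says only that these letters are not in the window.

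The annotated start of Mt1 lies well before its start codon, so the 250 bases of genome before the start codon of each canonical transcript were searched as well, a window chosen after the first had been seen. Mt1 has 5 cores there: TGCACAC at -245, TGCACTC at -220 and TGCGCTC at -202 on the strand of the gene, TGCACCC at -138 on the other strand, and TGCGCCC at -124, positions being those of the first base counted from the start codon. As many as 5 are found before 0.0554% of 21660 protein-coding genes. Mt2 and Slc30a2 have 4 each, a count reached by 0.314% of genes, and Slc30a1 has 1. The 2 searches share sites. The Mt1 core at -245 is the 1 core of its RefSeq window, and the Slc30a2 cores at -35 and -21 are the 2 of its RefSeq window. At least 1 core is found before 22.4% of genes, and the 5 remaining zinc genes have 0. Of these 5, all but Slc30a7 have the whole window inside the annotated gene, where it need not be promoter sequence. For Slc39a14 it covers 70556375 to 70556624, in a minus-strand gene that begins at 70588914. The same limit holds for genes with cores: the windows of Mt2, Slc30a1 and Slc30a2 also lie wholly inside the annotated gene. The Mt1 window begins at 94905689, and all of it from the gene start at 94905710 onward is inside the gene as well. These matches describe the letters of the genome and say nothing of binding.

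**Figure D1:**
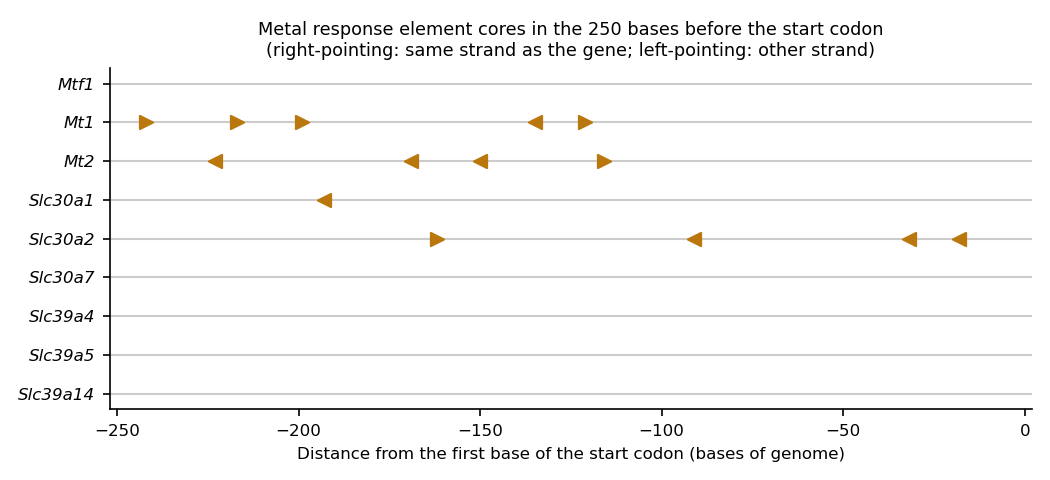
Positions of the metal response element core in the 250 bases of genome before the start codon of the 9 zinc genes; the horizontal axis gives the distance from the start codon in bases and each triangle is 1 match, pointing right on the strand of the gene and left on the other strand. Mt1 has 5 matches, Mt2 and Slc30a2 have 4 each, Slc30a1 has 1, and the 5 other genes have 0.

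Library totals ran from 7286307 to 15832111 counts. Paneth cell markers were abundant: the 7 genes of that list (among them Lyz1, Mmp7 and Ang4) summed to 110741 to 437040 CPM (read counts relative to the TMM-scaled library total) in every library. Pancreatic acinar, stromal and red blood cell markers summed to at most 1.70 CPM. The acinar genes Cela2a, Cpa1 and Prss2 were at 0 throughout, which bears on Slc30a2 and Slc39a5, since acinar cells express both. Other lists were not near 0: goblet markers summed to 2263 to 7428 CPM and stem cell markers to 252 to 1219 CPM. Immune markers summed to 37.6 to 278 CPM and cycling markers to 18.4 to 139 CPM. The part of such cells in the zinc genes was not tested. Nfkbia, an NF-kB target used here as a trace of the TNF injection, was at 277 to 337 CPM in PBS+TNF and at 330 and 382 CPM in DEX+TNF libraries 1 and 2, but at 28.3 and 41.0 CPM in DEX+TNF libraries 3 and 4, against 15.6 to 27.3 CPM in the groups without TNF. The labels were kept, and the fitted values printed for DEX+TNF are also given without these 2 libraries. That omission follows the level of a TNF-responsive gene and leaves 2 libraries in DEX+TNF. A TNF effect after DEX fitted in this way may therefore be tilted toward a larger response. Sgk1, a glucocorticoid target, was at 17.6 to 48.5 CPM in DEX+PBS and at 24.8 to 115 CPM in DEX+TNF, against 1.11 to 7.94 CPM without DEX. DEX+TNF library 4 also had the highest tuft cell markers (573.8 CPM summed over 5 genes, at most 127 CPM in the 3 other groups) and enterocyte markers (644 CPM over 10 genes). In all of these sorted pools, fewer cells of a type and less RNA per cell cannot be told apart. Whether the counting used strand is not stated, and Mtf1, Mt2, Slc30a1, Slc30a2, Slc30a7 and Slc39a4 overlap exons of genes on the other strand, so reads of the partner genes (Extl1 for Slc30a2, Gm45774 for Mt2) may be included.

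TNF without DEX moved 2 of the 9 genes past the test: Mt1 rose 1.85-fold and Slc30a2 fell 1.89-fold. Across all genes, 12.5% of the 11809 tested were called in this comparison (edgeR quasi-likelihood test, Benjamini-Hochberg adjusted p under 0.05 over all genes). The 4 libraries of PBS+TNF did not overlap those of PBS+PBS for 3 of the 9 genes (Mt1, Slc30a1 and Slc30a2), where 19.5% of all tested genes did not overlap. DESeq2 called 2 of the 9 and 17.5% of all genes, and edgeR without DEX+TNF libraries 3 and 4 called 3 of the 9 (Mt1, Slc30a1 and Slc30a2) and 17.7% of all genes. The median log2 fold change of the 9 genes was 0.32, and that of all tested genes was -0.03.

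The zinc sensor Mtf1 (ENSMUSG00000028890, chromosome 4, 124695897 to 124743593) was at 10.5, 9.64, 9.08 and 5.78 CPM in PBS+PBS libraries 1 to 4 and at 11.8, 13.1, 8.51 and 12.2 CPM in PBS+TNF. In DEX+PBS it lay within a narrow range, from 7.90 to 8.86 CPM, and in DEX+TNF it was at 16.5, 13.1, 5.82 and 9.67 CPM. DEX+TNF libraries 1, 2 and 4 were above every DEX+PBS library, while library 3 was below them all. Mtf1 did not pass the test in any comparison (PBS+TNF versus PBS+PBS, log2 fold change 0.38, SE 0.27, adjusted p = 0.420; DEX+TNF versus DEX+PBS, 0.43, SE 0.27, adjusted p = 0.655). Without DEX+TNF libraries 3 and 4, the second of these was 0.82 (SE 0.25) and passed (edgeR adjusted p = 0.048). Only DEX+TNF libraries 1 and 2, those with high Nfkbia, enter that fit, so it is selected for a TNF response.

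Mt1 (ENSMUSG00000031765), the better expressed of the 2 zinc-binding proteins, had 6566 counts over all libraries. It was at 11.5, 14.5, 9.13 and 15.6 CPM in PBS+PBS and at 21.0, 27.1, 21.6 and 23.4 CPM in PBS+TNF, and every PBS+TNF library was above every PBS+PBS library. In DEX+PBS it was at 19.5, 30.8, 41.0 and 39.6 CPM, again above all of PBS+PBS. In DEX+TNF it reached 40.1, 30.5, 46.1 and 71.7 CPM, above all of PBS+TNF but overlapping DEX+PBS. The group means (± SD, n = 4) were 12.7 ± 2.93 CPM with vehicle alone, 23.3 ± 2.76 with TNF alone, 32.7 ± 9.89 with DEX alone and 47.1 ± 17.6 with both.

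With TNF alone, Mt1 changed by 0.88 on the log2 scale (SE 0.28) and passed the edgeR test narrowly (adjusted p = 0.0456). Leaving out any PBS+TNF library, PBS+PBS library 1, 2 or 3, DEX+PBS library 2, 3 or 4, or DEX+TNF library 1 ended the call (adjusted p up to 0.125), with the fold change between 0.75 and 0.97 over all 16 omissions. For DEX alone it was larger, 1.37 (SE 0.28, 2.59-fold), yet edgeR did not call it (adjusted p = 0.300). In that comparison 0.00847% of all tested genes were called. DESeq2 gave an adjusted p of 0.00853. For DEX+TNF versus PBS+TNF it was 1.02 (SE 0.28, adjusted p = 0.121 with edgeR and 0.0317 with DESeq2), and 0.60 (adjusted p = 0.504) without DEX+TNF libraries 3 and 4. For TNF after DEX it was 0.52 (SE 0.27, adjusted p = 0.534), and 0.11 (SE 0.28, adjusted p = 0.851) without these libraries. The TNF effect after DEX minus that after PBS was -0.36 (SE 0.39, adjusted p = 1.00), and -0.78 (SE 0.38, adjusted p = 0.913) without them.

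Mt2 (ENSMUSG00000031762) was read at lower depth, with 17 to 535 counts in a library. It was at 2.06, 5.36, 0.908 and 2.64 CPM in PBS+PBS and at 4.24, 8.26, 3.45 and 5.55 CPM in PBS+TNF, where the 2 groups overlap. DEX+PBS had 5.83, 6.51, 11.0 and 20.6 CPM, all above PBS+PBS, and DEX+TNF had 6.05, 4.29, 9.08 and 26.7 CPM. The 2 highest values belong to the libraries numbered 4 of the DEX groups. The log2 fold change for DEX alone was 2.01 (SE 0.60, 4.03-fold), the largest of the 9 genes in that comparison, and edgeR did not call it (adjusted p = 1.00; 0.498 with DESeq2). It was 2.61 without PBS+PBS library 2 and 1.49 without DEX+PBS library 4, the ends of the range over single omissions. For TNF alone it was 0.98 (SE 0.60, adjusted p = 0.326), with a range from 0.67 without PBS+PBS library 3 to 1.59 without PBS+PBS library 2. For DEX+TNF versus PBS+TNF it was 1.10 (SE 0.58, adjusted p = 0.478), which became 0.26 without DEX+TNF library 4 and -0.070 without libraries 3 and 4. For TNF after DEX it was 0.07 (SE 0.56, adjusted p = 0.997), and -1.10 (SE 0.61, adjusted p = 0.281) without libraries 3 and 4.

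**Figure D2:**
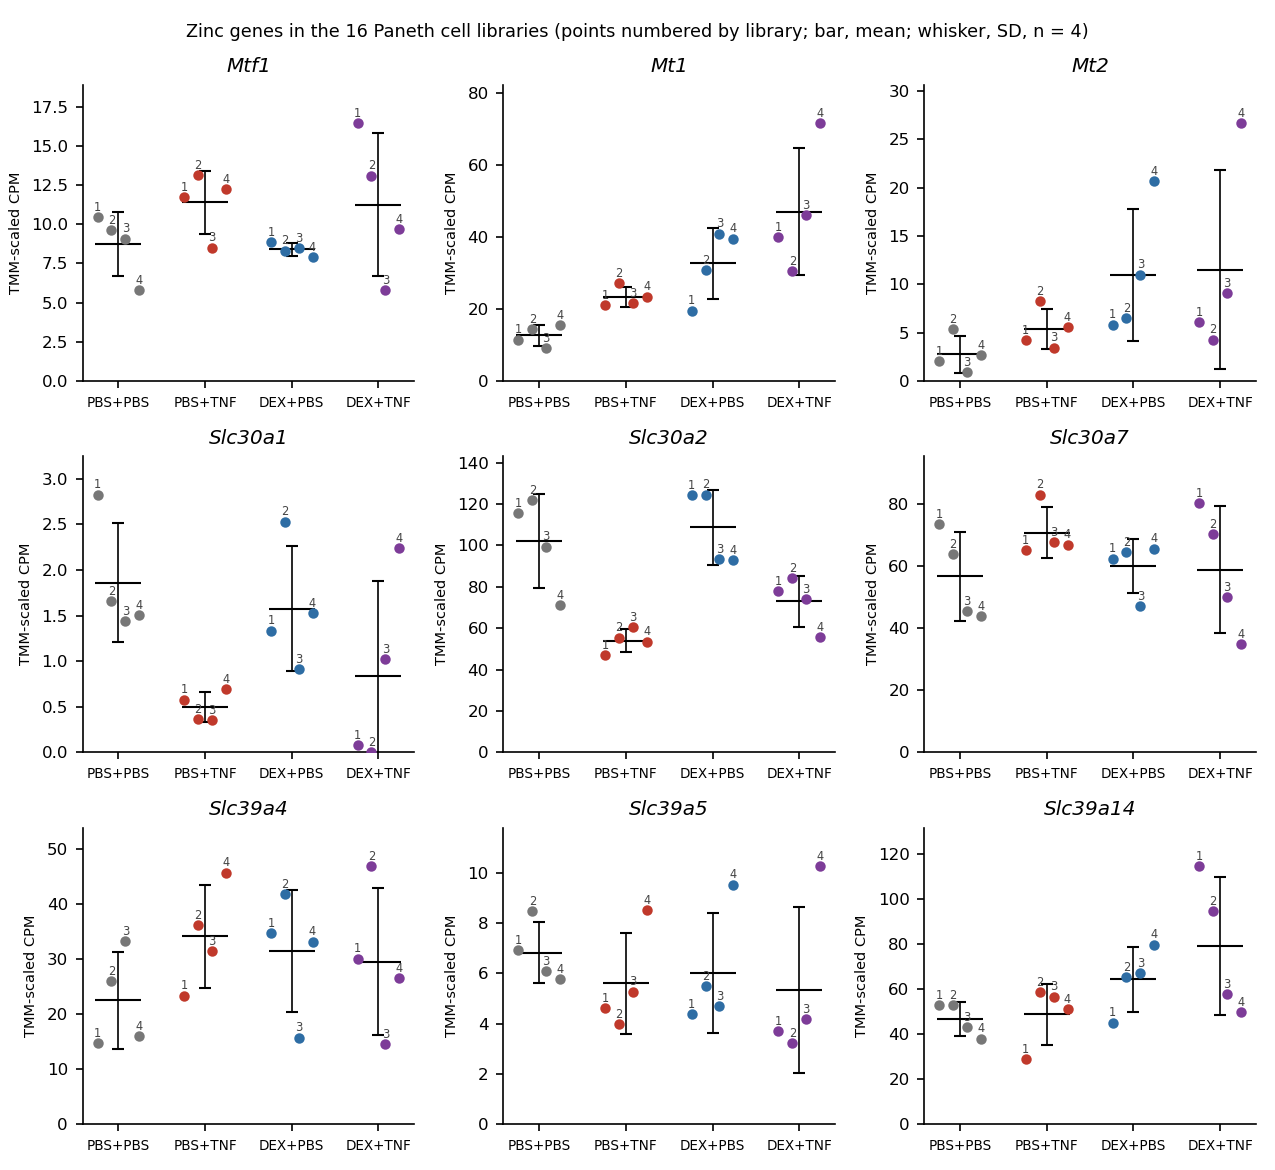
TMM-scaled CPM of the 9 zinc genes in each of the 16 libraries; points are libraries, numbered 1 to 4 within a group, bars are group means and whiskers are SDs (n = 4), cut at 0. Mt1 in PBS+PBS (9.13 to 15.6 CPM) lies below the 3 other groups, and Slc30a2 in PBS+TNF (47.0 to 60.4 CPM) lies below PBS+PBS (71.2 to 122 CPM).

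Among the exporters, Slc30a1 (ENSMUSG00000037434, chromosome 1, 191638808 to 191645361) carries zinc out across the plasma membrane. It had 273 counts in all 16 libraries together, so that its values are coarse. It was at 2.83, 1.66, 1.44 and 1.51 CPM in PBS+PBS and at 0.578, 0.362, 0.352 and 0.693 CPM in PBS+TNF, with 98 against 28 counts and no overlap. In DEX+PBS it was at 1.34, 2.53, 0.916 and 1.53 CPM. In DEX+TNF it had 1, 0, 10 and 45 counts (0.0807, 0, 1.02 and 2.24 CPM): libraries 1 and 2 were below every other library, and libraries 3 and 4 were within the range of the groups without TNF. A count of 0 or 1 is under the floor of 3 counts used here, and the lowest PBS+TNF library, with 3 counts, is at that floor. With TNF alone, edgeR fitted a log2 fold change of -1.90 (SE 0.83) that did not pass (adjusted p = 0.149). It passed the test at the same size without DEX+TNF libraries 3 and 4 (-1.89, SE 0.51, adjusted p = 0.0154) and with the 2 compared groups alone (adjusted p = 0.0225). For TNF after DEX it was -0.88 (SE 0.78, adjusted p = 0.800) with all libraries. The same comparison was called as lower without libraries 3 and 4 (-5.02, SE 0.93, edgeR adjusted p = 0.0020). That fit rests on 1 count in DEX+TNF libraries 1 and 2, which were kept for their high Nfkbia, so its size is no bound.

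Slc30a2 (ENSMUSG00000028836, chromosome 4, 134070234 to 134081795), the granule zinc transporter, was the 1 transporter among the 9 genes that passed the test. It was at 116, 122, 99.4 and 71.2 CPM in PBS+PBS and at 47.0, 55.4, 60.4 and 53.5 CPM in PBS+TNF, so that every TNF library was lower. DEX+PBS, at 124, 125, 93.4 and 92.7 CPM, was within or just above the PBS+PBS range. DEX+TNF, at 78.0, 84.2, 73.9 and 55.5 CPM, was below every DEX+PBS library. With TNF alone, edgeR fitted a log2 fold change of -0.92 (SE 0.21, adjusted p = 0.00976), and the call held under each of the 24 alternatives. The values for TNF after DEX were in the same direction, -0.58 (SE 0.21), but did not pass over all genes (edgeR adjusted p = 0.292). The difference between the 2 TNF effects was 0.34 (SE 0.30, adjusted p = 1.00). DEX+TNF versus PBS+TNF gave 0.43 (SE 0.21, adjusted p = 0.439) and DEX alone 0.09 (SE 0.21, adjusted p = 1.00). Without DEX+TNF libraries 3 and 4, the first 3 of these values were -0.42 (SE 0.24), 0.49 (SE 0.31) and 0.59 (SE 0.24), and none passed (adjusted p = 0.305, 0.972 and 0.461). The summed level of the 10 enterocyte markers was also lower with TNF, at 309 to 408 CPM in PBS+PBS and 90.9 to 129 CPM in PBS+TNF. Most of the difference lay in Anpep (means of 257 and 55.0 CPM). The means of Fabp2 (45.4 and 24.7 CPM), Apoa1 (11.0 and 2.29 CPM) and Sis (6.64 and 1.87 CPM) were also lower. So were those of Apoa4 (4.72 and 1.32 CPM), Lct (1.88 and 0.0124 CPM) and Alpi (1.04 and 0.341 CPM), and Alpi had no count in 8 libraries. Slc5a1 (20.4 and 22.3 CPM) and Fabp1 (1.92 and 2.54 CPM) were not lower, and Ada stood at 2.14 CPM in both groups. These markers were not tested, and their part in the fall of Slc30a2 was not tested.

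Slc30a7 (ENSMUSG00000054414, chromosome 3, 115732621 to 115801060), which brings zinc into the Golgi apparatus, did not pass the test in any comparison. It ranged from 44.0 to 73.5 CPM with vehicle alone, from 65.1 to 83.0 CPM with TNF alone, from 47.2 to 65.6 CPM with DEX alone and from 34.8 to 80.2 CPM with both, and all groups overlap. Its fitted log2 fold change for TNF alone was 0.32 (SE 0.25, adjusted p = 0.467).

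The importers did not pass the test in any comparison either. Slc39a4 (ENSMUSG00000063354, chromosome 15, 76496580 to 76504172), which takes up dietary zinc at the luminal membrane, spread widely within each group: 14.6 to 33.3 CPM with vehicle alone, 23.3 to 45.7 CPM with TNF alone, 15.7 to 41.8 CPM with DEX alone and 14.5 to 46.8 CPM with both. Its log2 fold change was 0.60 for TNF alone (SE 0.36, adjusted p = 0.316). Slc39a5 (ENSMUSG00000039878, chromosome 10, 128231799 to 128237121), a basolateral importer, stayed between 3.23 and 10.3 CPM, and in the 3 groups other than PBS+PBS the highest value was that of the library numbered 4. Its log2 fold changes lay between -0.28 and -0.06 in the 4 comparisons of groups, each smaller than its SE. Without DEX+TNF libraries 3 and 4, the value was -0.70 (SE 0.38) for DEX+TNF versus PBS+TNF and -0.81 (SE 0.38) for TNF after DEX, neither of which passed (edgeR adjusted p = 0.548 and 0.201).

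Slc39a14 (ENSMUSG00000022094, chromosome 14, 70540678 to 70588914), a broad metal importer known for its induction in the inflamed liver, was at 52.9, 52.7, 42.9 and 37.9 CPM in PBS+PBS and at 28.9, 58.7, 56.6 and 51.0 CPM in PBS+TNF. It was at 45.0, 65.5, 67.0 and 79.7 CPM in DEX+PBS and at 115, 94.8, 57.8 and 49.9 CPM in DEX+TNF. DEX+TNF libraries 1 and 2 were above every other library, and libraries 3 and 4 were within the range of the other groups. DEX+TNF versus PBS+TNF gave a log2 fold change of 0.70 (SE 0.28), which did not pass over all genes (edgeR adjusted p = 0.333), and 1.10 (SE 0.27, adjusted p = 0.262) without libraries 3 and 4. TNF alone gave 0.07 (SE 0.28, adjusted p = 0.923).

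**Figure D3:**
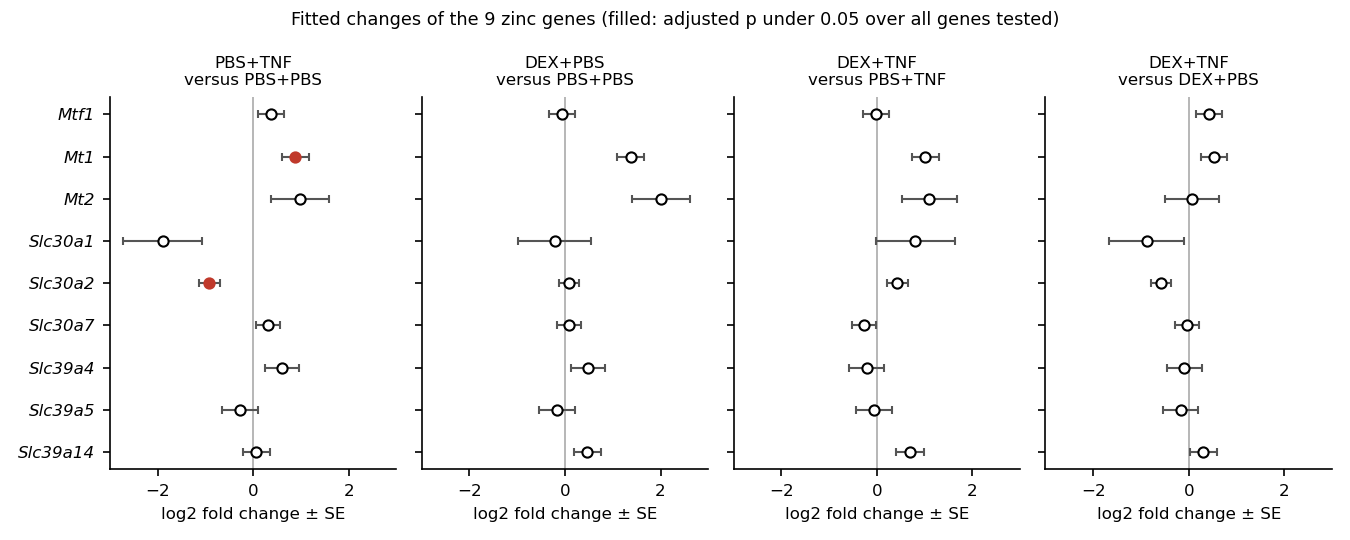
Fitted log2 fold changes (points) with SE (lines) of the 9 zinc genes in the 4 comparisons of groups; filled points have an edgeR adjusted p under 0.05. The filled points are Mt1 (0.88) and Slc30a2 (-0.92) with TNF alone, and Mt2 with DEX alone has the highest open point (2.01).

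In the 3 remaining comparisons of groups, edgeR called 0 of the 9 genes. With DEX alone, 2 had an unadjusted p under 0.05 and did not overlap PBS+PBS (Mt1 and Mt2), where 1.9% of all tested genes had such a p and 1.88% did not overlap. DESeq2 called 1 of the 9 there (Mt1) and 0.0593% of all genes. With DEX+TNF versus PBS+TNF, 2 had an unadjusted p under 0.05 (Mt1 and Slc39a14), against 11.9% of all tested genes, and 1 did not overlap (Mt1), against 6.38%. In that comparison edgeR called 0.339% of all genes, and DESeq2 called 1 of the 9 (Mt1) and 2.32% of all genes. With DEX+TNF versus DEX+PBS, 1 had an unadjusted p under 0.05 and did not overlap (Slc30a2), where 10.4% of all tested genes had such a p and 4.68% did not overlap. There, edgeR called 0.339% of all genes, and DESeq2 called 0 of the 9 and 2.19% of all genes. Without DEX+TNF libraries 3 and 4, edgeR called 0 of the 9 and 0 genes in all in DEX+TNF versus PBS+TNF. In DEX+TNF versus DEX+PBS it then called 2 of the 9 (Mtf1 and Slc30a1) and 10.5% of all genes, Slc30a1 with 1 count in DEX+TNF. The libraries left out were those with low Nfkbia, so this comparison is selected for a TNF response. For the interaction, edgeR called 0 of 11809 genes (0.0%), 642 had an unadjusted p under 0.05 (5.44%), none of them among the 9, and DESeq2 called 9 genes (0.0762%), none of the 9 zinc genes among them. The comparisons share groups, PBS+PBS among them, and are not independent of each other.

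Levels between genes were compared as CPM per kilobase of exon. In PBS+PBS, Slc30a2 stood first at 26.4 ± 5.86 (SD, n = 4) and Mt1 second at 10.2 ± 2.35, with no overlap between them. From Mt1 down to Mt2, each gene overlapped the next in the order: Slc39a4 (5.39), Slc39a14 (3.86), Slc30a7 (3.79), Slc39a5 (3.03) and Mt2 (2.89). Mt2 also overlapped Mtf1 (0.960 ± 0.225), and Slc30a1 (0.328 ± 0.115) was below Mtf1 in all 4 libraries. In PBS+TNF the first 2 places changed over: Mt1 stood at 18.7 ± 2.22 and Slc30a2 at 14.0 ± 1.43, Mt1 being higher in all 4 libraries. In DEX+PBS the 2 genes overlapped (28.1 ± 4.69 for Slc30a2 and 26.3 ± 7.94 for Mt1), and in DEX+TNF Mt1 (37.8 ± 14.1) was again above Slc30a2 (18.9 ± 3.19). Mt2 stood at place 7 in PBS+PBS, at place 4 in PBS+TNF and at place 3 in both DEX groups, where it overlapped Slc39a4. With the longest coding transcript as the length, the first 2 places were the same in all 4 groups, Slc39a14 moved ahead of Slc39a4 in PBS+PBS and in both DEX groups, and Mt2 stood at place 6 in both PBS+PBS and PBS+TNF and again at place 3 in both DEX groups.

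**Figure D4:**
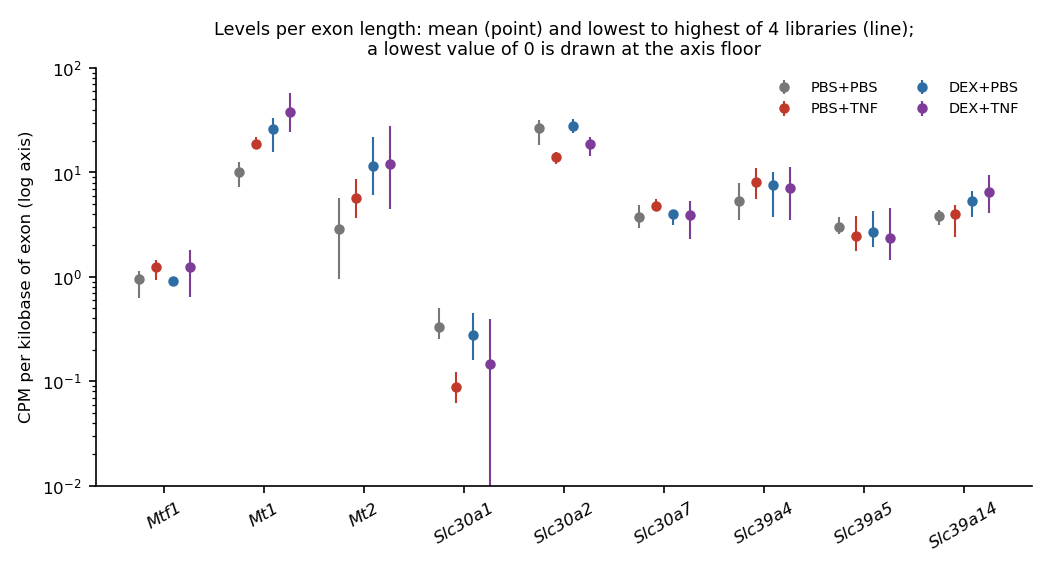
Level of the 9 zinc genes in CPM per kilobase of exon, on a log axis, for the 4 groups; points are means and lines run from the lowest to the highest of 4 libraries, with a value of 0 drawn at the foot of the axis. Slc30a2 leads in PBS+PBS (26.4) and Mt1 in PBS+TNF (18.7) and DEX+TNF (37.8).

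The remaining zinc genes were taken as a list of 22: the other ZnT and ZIP transporters, Mt3, Mt4, the zinc-sensing receptor Gpr39 and the zinc efflux protein Tmem163. Of these, 15 were tested, 2 rose with TNF alone and 0 fell, a share close to the 12.5% of all tested genes called there (7.15% as higher and 5.35% as lower), and edgeR called 0 in the other comparisons. Their median log2 fold change with TNF alone was -0.11, against -0.03 for all tested genes. Slc39a1, a plasma membrane zinc importer, was at 44.5, 55.9, 46.8 and 51.6 CPM in PBS+PBS and at 123, 122, 119 and 108 CPM in PBS+TNF (log2 fold change 1.25, SE 0.29, adjusted p = 0.00937). In DEX+TNF it was at 110 and 110 CPM in libraries 1 and 2 and at 54.5 and 34.7 CPM in libraries 3 and 4, which were within or below the 43.2 to 55.1 CPM of DEX+PBS. Gpr39 rose with TNF alone from 1.33 to 2.51 CPM to 3.27 to 8.52 CPM (1.63, SE 0.39, adjusted p = 0.0110). Slc39a11 and Slc39a8, with Slc39a1 the 3 genes of the list with the highest level per length, did not pass (-0.46, SE 0.22, adjusted p = 0.195 and -0.12, SE 0.24, adjusted p = 0.814). Slc30a8, Slc39a12, Mt4 and Tmem163 had no count in any library, and Slc30a3, Slc30a10 and Slc39a2 were below the filter with at most 23 counts in all.

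**Figure D5:**
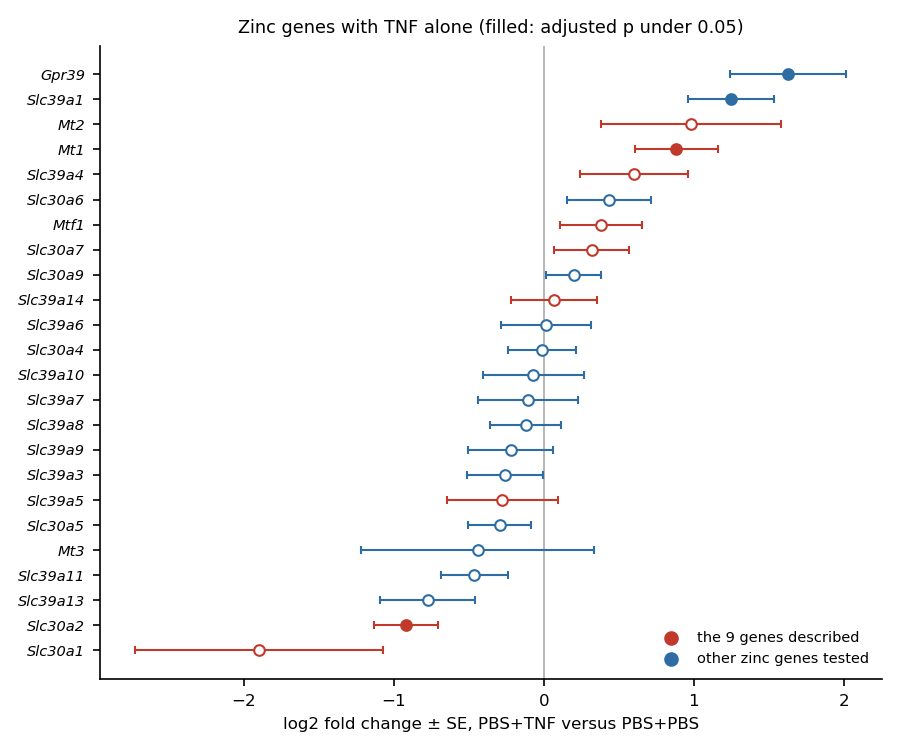
Log2 fold change with SE for PBS+TNF versus PBS+PBS of the 24 tested zinc genes; red marks the 9 genes described first, blue the 15 others, and filled points have an edgeR adjusted p under 0.05. Gpr39 (1.63), Slc39a1 (1.25) and Mt1 (0.88) are filled above 0 and Slc30a2 (-0.92) is filled below 0.

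Correlations of log2 CPM over the 16 libraries were read among 7817 genes averaging 5 CPM or more, as a description without a test. All genes of a library share its group and its scaling. The genes with the most similar pattern were those with the highest correlation. For Mt1 these were Sgk1 (Pearson r = 0.917), Ddit4 (0.904) and Fkbp5 (0.782), and the correlation of deviations from the group means, which removes the group differences, was 0.722, 0.540 and 0.265. Mt2 stood at 0.884, and at 0.871 within groups, so that the 2 metallothionein genes varied together among replicates as well. For Slc30a2 they were Tmem109 (0.944), Gdpd1 (0.925) and Bhlha15 (0.919), with 0.798, 0.744 and 0.731 within groups. For Slc39a14 they were Hpn (0.847), Mbd1 (0.808) and Klf10 (0.803), with 0.830, 0.786 and 0.700 within groups. Within groups, Mt1 and Slc30a2 varied in opposite directions (r = -0.625, and -0.318 over all 16 libraries). The remaining within-group correlations of Mt1 with the members went both ways. They were 0.594 for Slc39a5, 0.499 for Slc30a1, -0.050 for Slc39a14, -0.309 for Mtf1, -0.414 for Slc39a4 and -0.455 for Slc30a7.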

How the data were processed

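Sorted Paneth cells of 16 mice gave 16 stranded mRNA libraries. The authors deposited raw counts of reads for each Ensembl gene in each library. The submitters' processing notes name FastQC 0.12, STAR 2.7.10a, mm39 and DESeq2; the study's methods name GENCODE M30. The counting program, the handling of reads that match several genes and the use of strand are not given in the sources used here.

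Groups came from the sample labels, in which the 4 libraries of a group are biological replicates. Genes were filtered with filterByExpr and scaled by TMM factors (0.418 to 1.50). The robust quasi-likelihood method of edgeR 4.0.16 (R 4.3.3) was fitted to all 16 libraries with 1 mean for each group, and 5 contrasts were tested, with Benjamini-Hochberg adjustment over all 11809 genes of a contrast and a threshold of 0.05. The SE is the size of a log2 fold change divided by the square root of F. Gene models were those of GENCODE M39 (54749 of 55414 identifiers matched). Promoters came from RefSeq; proteins were not analysed here. The closest 2 libraries of a group, DEX+TNF 1 and 2, differed by a chi-square of 7.10 per degree of freedom, beyond sampling noise. The main fit did not pair libraries across groups by replicate number. Of 16 comparisons, 5 gave the best correlation with the same number, and whether equal numbers share a batch was not tested.

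All 9 genes, the genes called or with the 3 highest levels among 22 other zinc genes, the 3 genes most like each of Mt1, Slc30a2 and Slc39a14, and Nfkbia and Sgk1 were named by rule. The genes and lists were chosen with earlier results of these data known. As alternatives, DESeq2 1.42.0, upper-quartile or median-of-ratios factors, no filter on low counts, a minimum mean of 5 CPM, the compared groups alone, a replicate block, leaving out each library, leaving out DEX+TNF 3 and 4, and another gene length were tried. Likeness within groups and the window before the start codon were added after the data were seen.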

Additional observations from a re-analysis of the deposited data

Results flagged for a closer look

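Within each group, the highest and lowest of the 4 libraries were compared with the others for each of the 9 genes (36 sets of 4 values). A library stood apart, with a gap to its nearest neighbour above Dixon's critical share of the group's range, in 3 of them, where chance alone gives about 1 in 20. Slc30a1 in PBS+PBS library 1 was at 2.83 CPM, with a gap of 0.843 of the range. Slc30a7 in PBS+TNF library 2 was at 83.0 CPM (0.851). Slc39a5 in DEX+TNF library 4 was at 10.3 CPM (0.865), the library that also had the highest tuft cell and enterocyte markers; the part of those cells in this value was not tested.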

How the results depend on the processing

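With TNF alone, Slc30a2, Slc39a1 and Gpr39 kept their calls under each alternative in which they were tested; at a mean of at least 5 CPM Gpr39 was not tested and 1 other zinc gene was called. Mt1 lost its call with upper-quartile factors (0.77, adjusted p = 0.0902), without the low-count filter (0.89, 0.0550) and at a mean of at least 5 CPM (0.85, 0.0569), which left 1 of the 9 genes called in each, where 13.7%, 5.41% and 15.9% of all genes tested were called; omitting single libraries gave 1 to 2. Upper-quartile factors moved the median of all genes in this comparison from -0.03 to -0.15 and brought the higher genes from 57.2% to 46.3% of those called. DESeq2 called 1 of the 9 with DEX alone and 1 in DEX+TNF versus PBS+TNF, and called 2061 genes in all with TNF alone, against 1476. Without DEX+TNF libraries 3 and 4, left out for their low Nfkbia, 2 of the 9 were called in DEX+TNF versus DEX+PBS (Mtf1 and Slc30a1), against 10.5% of all genes. Slc30a1 then had 1 count in DEX+TNF. With TNF alone 3 were called (Mt1, Slc30a1 and Slc30a2), against 17.7% of all genes. Calls over all genes changed most where DEX+TNF was compared. In DEX+TNF versus PBS+TNF there were 40 with edgeR, 274 with DESeq2, 16 with the replicate block, 0 with the compared groups alone or without libraries 3 and 4, and 0 to 102 with single libraries omitted. In DEX+TNF versus DEX+PBS there were 40, 259, 0, 0 and 1286, with 6 when low counts were not filtered and 0 to 362 with single omissions. With DEX alone there were 1 with edgeR, 7 with DESeq2 and 0 to 2 with single omissions, and with TNF alone single omissions gave 916 to 1698. The causes were not tested.

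Directions turned for values that edgeR did not call. With upper-quartile factors Slc39a14 was at -0.042 with TNF alone, and Mtf1 and Slc39a5 were at 0.014 and 0.012 in DEX+TNF versus PBS+TNF. Without DEX+TNF libraries 3 and 4, DEX+TNF versus PBS+TNF gave 0.38 for Mtf1, -0.070 for Mt2, -3.33 for Slc30a1 (fitted on 1 count in the libraries left, so its size is no bound), 0.093 for Slc30a7 and 0.17 for Slc39a4. DEX+TNF versus DEX+PBS gave -1.10 for Mt2, 0.33 for Slc30a7 and 0.29 for Slc39a4, and the interaction gave -3.12 for Slc30a1, 0.010 for Slc30a7 and -0.54 for Slc39a5. With the replicate block, Mt2 in DEX+TNF versus DEX+PBS was at -0.012 and Mtf1 in the interaction at -0.024. The replicate block called 2 of the 9 genes with TNF alone, as without it, and 1482 genes in all; of 16 correlations between same-numbered libraries, 8 were above 0.1, and 5 of 16 libraries correlated best with their own number.

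Omitting single libraries turned these further values, none of them called. With TNF alone Slc39a14 ran from -0.041 to 0.23. With DEX alone Mtf1 ran from -0.22 to 0.029, Slc30a1 from -0.54 to 0.056, Slc30a2 from -0.054 to 0.19 and Slc30a7 from -0.029 to 0.23. In DEX+TNF versus PBS+TNF Mtf1 ran from -0.26 to 0.19, Slc30a1 from -0.49 to 1.20, Slc39a4 from -0.53 to 0.0076 and Slc39a5 from -0.60 to 0.22. In DEX+TNF versus DEX+PBS Mt2 ran from -0.76 to 0.58, Slc30a7 from -0.22 to 0.17, Slc39a4 from -0.41 to 0.13 and Slc39a5 from -0.70 to 0.16. In the interaction Mtf1 ran from -0.19 to 0.26, Slc30a1 from -0.28 to 1.41, Slc39a5 from -0.43 to 0.43 and Slc39a14 from -0.0024 to 0.41. Depth limits Slc30a1 (0 to 45 counts a library) and Mt2 (17 to 535).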
